A study of Mus musculus with 8 samples.

Results

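The mouse array carried 4460 probes to long noncoding RNAs among 56605 probes that were not controls. They were taken by their probe identifier, which begins with A_30_P, a rule that uses no measured value. For 4450 of them the array file gave a locus in place of a gene, as a chromosome, a start and an end on build mm9, and for the other 10 it gave the name of a known transcript. The loci bore a letter, F on 2227 probes and R on 2222, and 1 locus had none; the letter is printed here as the files give it. The probes fell on 3230 distinct loci, of which 832 had probes of both letters. Locus length ran from 62 to 538251 bases with a median of 10601, and the number of probes per chromosome from 95 on chromosome 19 to 343 on chromosome 1, over 20 chromosomes with 0 probes on Y. The deposited signals give each probe as 1 brightness, so what a value means for a locus is limited to the stretch its probe was designed to.

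Retinas of aged mice were compared, 4 samples from mice homozygous for an Mrp4 knockout, on a C57BL/6J background, and 4 from wild-type mice, all 46 to 55 weeks old, on 1-color Agilent arrays. Mrp4 (gene Abcc4) encodes an ABC-family pump that moves drugs and endogenous organic anions out of cells, and the comparison asked which transcripts of the aged retina differ when it is missing. Tissue was taken from 3 mice, and how these relate to the 4 samples of a genotype is not given in the sources used here, so the p-values below measure only the spread between these samples. Whole retina was used, in which fewer cells of a type and less RNA per cell cannot be told apart.

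Long noncoding RNAs are transcripts with little or no capacity to encode protein. Some act on the chromosome from which they are made, as Xist does in silencing an X chromosome, others build nuclear bodies, as Neat1 does in paraspeckles, and many have no known role. In the retina, Tug1 is known to be needed for photoreceptors to form. Loci mapped between genes, such as those on this array, often carry only coordinates as a name, and neighbouring or opposite transcripts at a locus can be made independently.

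Several facts of the arrays bear on every comparison here. The Abcc4 probe gave normalized log2 signals of 10.84, 10.71, 10.64 and 10.80 on the arrays labelled knockout and 6.62, 7.13, 6.54 and 7.02 on the wild-type arrays, a difference of 3.92 ± 0.14 (SE; limma, adjusted p = 1.36e-05) against the direction of the labels. Where that probe lies relative to the deleted segment is not given in the sources used here. Directions below therefore follow the labels as deposited, and the arrays are called null-labelled and wild-type. The Y-linked genes Kdm5d, Eif2s3y, Uty and Ddx3y rose well above background on arrays 2, 3 and 4 of the wild-type group and on 0 of the null-labelled arrays. Each genotype filled its own row of a single slide, so array position and genotype cannot be told apart. The 75th percentile of processed signal ran from 678 to 1082 over the arrays, and the correlation between arrays from 0.981 to 0.997. Markers of rods were retained for 10 of 10 genes, and 20 of 27 lens genes were retained too, with 0 called by limma, 5 of the 20 at an unadjusted p under 0.05 (beside 6.46% of all retained probes) and a median log2 difference of -1.36. Among the other cell type lists the endothelial genes had the lowest median, -0.29, with 0 called and 3 of 8 at an unadjusted p under 0.05. The summed lens signal ran from 8171 to 32388 on null-labelled arrays and from 14423 to 67244 on wild-type arrays. Over the 8 arrays, 1 retained noncoding probe followed the mean of the lens genes with r over 0.9 (A_30_P01026908 at chr6:11994002-11997859, r = 0.929) and 8 ran against it with r under -0.9, a description with no p. The part of lens signal in the calls below was not tested.

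The noncoding RNA probes were less often detected than the rest of the array. On null-labelled arrays 1 to 4 the scanner software marked 62.2%, 57.5%, 62.7% and 60.1% of them as well above background, and on wild-type arrays 1 to 4 it marked 59.5%, 60.7%, 57.5% and 56.4%. The groups overlapped: the mean was 60.6% ± 2.38 (SD, n = 4) against 58.5% ± 1.93 (SD, n = 4), and the difference of 2.12 percentage points did not pass an exact two-sided permutation test (p = 0.229, where 0.0286 is the smallest possible). Against the other 52145 probes of the same array the share was lower on 8 of 8 arrays, with a mean difference of -9.03 percentage points (SD 0.897; exact two-sided sign-flip permutation test over arrays, p = 0.0078125, the smallest possible). The gap depended on the flag. With the software's milder flag, a positive signal significantly above background, the mean difference was -1.24 percentage points (exact permutation p = 0.0078125). Every array carried the same probes, so these p-values measure how the gap repeats over arrays, not the spread between probes.

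**Figure D1:**
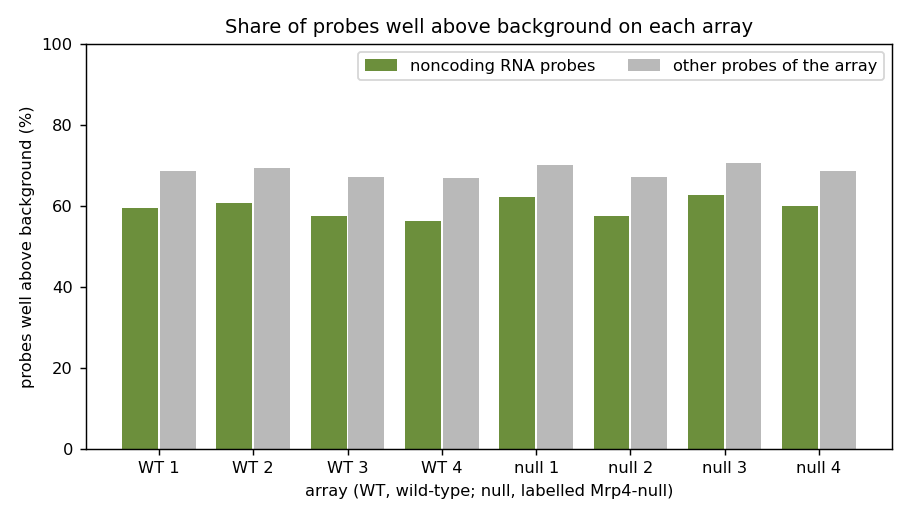
Bars give the percentage of probes well above background on each array, green for the 4460 noncoding RNA probes and grey for the other 52145 probes. The green bar is the lower of the pair on all 8 arrays, between 56.4% and 62.7%.

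Detection was mostly all or nothing. In all, 2327 noncoding probes (52.2%) were well above background on all 8 arrays, 1428 (32%) on none, and 705 (15.8%) on 1 to 7. The corresponding share on all 8 arrays was 63.8% for the other probes. Of the letters, F had 51.3% and R 53% on all 8 arrays. With the loci cut by length into 4 groups of like number, the shortest had 45.6% there, against 55.3%, 51.2% and 56.6% in the next groups, so the share was lowest for the shortest loci and did not climb steadily with length. Among chromosomes the share went from 43% on chromosome 9 to 61.8% on chromosome 17. All arrays of one genotype and none of the other had 7 noncoding probes (0.157%) well above background, 4 of them on the null-labelled arrays and 3 on the wild-type arrays, beside 35 (0.0671%) of the other probes.

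For the comparison of genotypes, a probe was retained where all measured arrays of either genotype had it well above background, which kept 2495 noncoding probes (55.9%) and left 1965 without a test. A probe was called changed where limma's adjusted p over all retained probes of the array was under 0.05 and the fold was at least 1.5. By that rule 14 noncoding probes were called (0.561% of those retained), beside 0.545% of all 37085 retained probes, so the noncoding probes were called about as often as the array as a whole. With 1 array left out the count ran from 7 to 17, and the count over all retained probes from 117 to 188. Of the 14, 10 were higher on the null-labelled arrays (beside 0.256% of all retained probes) and 4 were lower (beside 0.289%). The median log2 difference of the noncoding probes was 0.01 and that of all retained probes -0.01, and 5% of noncoding probes lay below -0.26 and 5% above 0.35. Non-overlapping genotypes were seen for 96 noncoding probes (3.85%), beside 4.79% of all retained probes. An unadjusted p under 0.05 was reached by 173 (6.93%), beside 6.46%. A fold of at least 1.5, taken without a test, was seen for 51 noncoding probes (2.04%, 37 higher and 14 lower), beside 1.88%. A retained noncoding probe had a median SD over arrays of 0.22 (null-labelled) and 0.19 (wild-type) on the log2 scale, and other probes had 0.19 and 0.16.

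**Figure D2:**
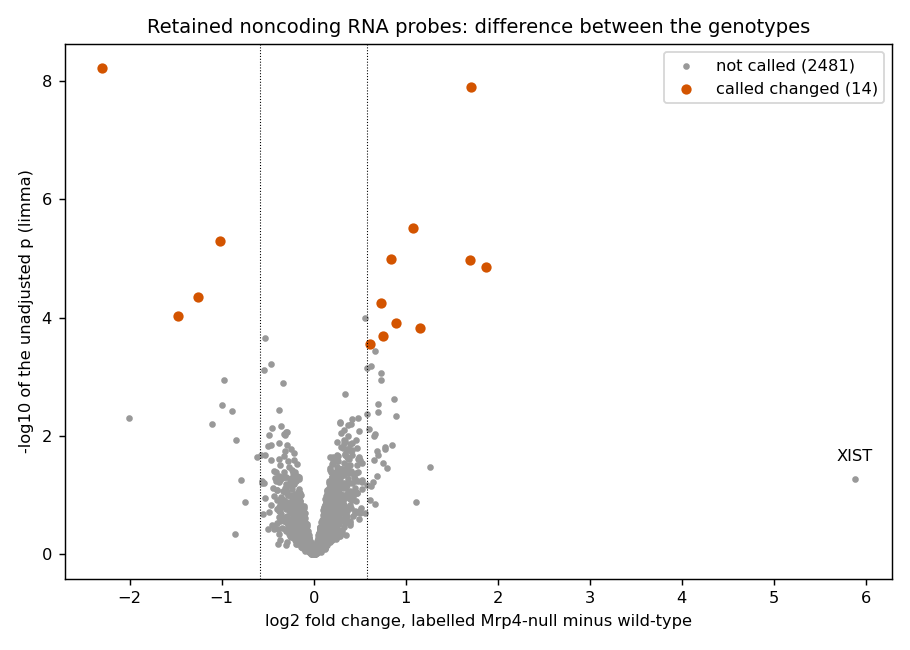
Each point is 1 of the 2495 retained noncoding RNA probes, with its log2 fold change (null-labelled minus wild-type) on the x axis and the negative log10 of limma's unadjusted p on the y axis; orange points are the 14 called probes and dotted lines mark the fold of 1.5. XIST, at 5.88, is not called, and its value rests on wild-type arrays of which 2 are not well above background.

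The 14 called probes stood for 13 loci on 7 chromosomes. All 14 had genotypes that did not overlap, beside 4.79% of all retained probes. A limma call favours separated groups, so this adds no support to the calls. No gene or function is given for any of them, so each is described by its position. The strongest call was a fall on chromosome 14. Probe A_30_P01031079, at chr14:73746324-73749119 (letter R), read 5.82, 6.09, 6.03 and 5.99 on null-labelled arrays 1 to 4 and 8.24, 8.25, 8.12 and 8.49 on wild-type arrays 1 to 4. The arrays of each genotype lay close together, with a wide gap between the genotypes. The log2 difference was -2.30 ± 0.10 (SE; limma, adjusted p = 2.29e-05), a 4.91-fold lower signal under the null label. A longer locus, chr14:73729977-73751877, encloses it, and the probe of the same letter there, A_30_P01031783, went the other way. It read 7.81, 7.64, 7.72 and 7.84 on the null-labelled arrays and 7.32, 7.18, 7.13 and 7.13 on the wild-type arrays. These groups did not overlap either, and the rise of 0.56 ± 0.08 passed the adjusted p (0.0238, limma) but at 1.48-fold stayed under the fold threshold. Passing depended on the arrays: limma's adjusted p was 0.105 without null-labelled array 1, 0.0307 without array 2 and 0.0715 without array 3. The local pooled error test gave an adjusted p of 0.824. The probe of letter F at the longer locus differed by 0.12 ± 0.14 (adjusted p = 0.999911). Within these 21901 bases, then, the readings of the same letter moved in opposite directions.

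**Figure D3:**
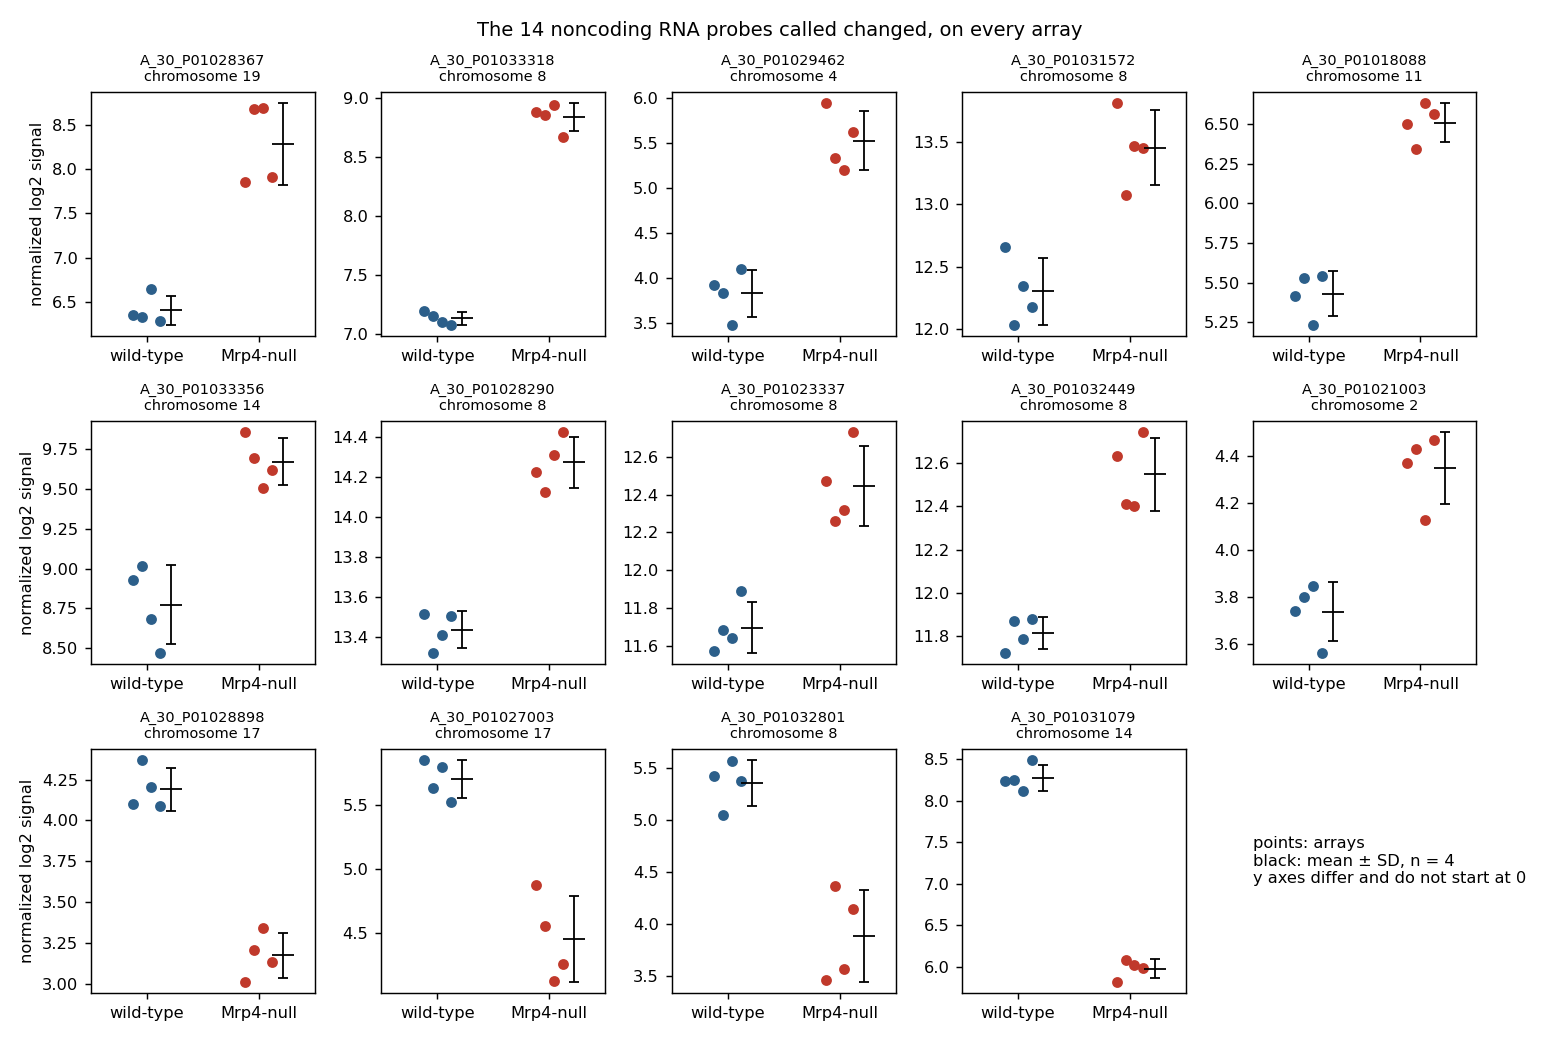
Each panel shows 1 called noncoding RNA probe, with the normalized log2 signal of each array as a point (blue, wild-type; red, null-labelled) and the mean ± SD of 4 arrays in black; the y axes differ between panels and do not start at 0. In each of the 14 panels the points of the genotypes are separate, 10 with the null-labelled arrays above and 4 with them below. The probes were picked by their calls, which favour separated groups.

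Chromosome 8 held the most calls, 6 of its 155 retained noncoding probes, 5 higher and 1 lower. The call with the tightest arrays was A_30_P01033318 at chr8:85952719-85958369 (letter R), which read 8.88, 8.86, 8.94 and 8.67 on the null-labelled arrays and 7.20, 7.15, 7.11 and 7.08 on the wild-type arrays. Arrays of a genotype differed by far less than the genotypes did, and the rise was 1.71 ± 0.08 (limma, adjusted p = 3.71e-05). The probe of letter F at the same locus, A_30_P01032499, was well above background on all 8 arrays and differed by 0.25 ± 0.40 (adjusted p = 0.999911), with arrays of each genotype spread by an SD of 0.69 and 0.65. At 0.338 Mb from it, A_30_P01032801 at chr8:85609155-85615170 (letter R) was lower under the null label. It read 3.46, 4.36, 3.56 and 4.14 on the null-labelled arrays and 5.42, 5.04, 5.56 and 5.37 on the wild-type arrays. Null-labelled arrays were low and scattered, the wild-type arrays higher and closer together, and the fall was -1.47 ± 0.21 (limma, adjusted p = 0.0232). With normexp background correction, an alternative way to remove background, it was -0.41 and not called (adjusted p = 0.0583), and the call was lost in 6 of the 8 fits that left out an array. These neighbouring loci therefore had calls in opposite directions.

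A pair of probes shared the 281-base locus chr8:72105642-72105922 (letter R), and they count as 1 locus, not as independent evidence. A_30_P01023337 read 12.47, 12.26, 12.32 and 12.73 on the null-labelled arrays and 11.57, 11.69, 11.64 and 11.89 on the wild-type arrays. A_30_P01032449 read 12.63, 12.41, 12.40 and 12.74, against 11.72, 11.87, 11.79 and 11.88. Both probes put every null-labelled array above every wild-type array, with array 4 the highest of each genotype. The rises were 0.75 ± 0.12 (limma, adjusted p = 0.0374) and 0.73 ± 0.10 (limma, adjusted p = 0.0157), and the calls were lost in 7 and 5 of the 8 fits that left out an array. A locus of letter F that spans them, chr8:71938275-72113375, had a probe, A_30_P01018878, that read 6.39, 6.53, 6.82 and 6.58 against 6.12, 5.54, 6.004 and 5.73. Its groups did not overlap, but the difference of 0.73 ± 0.15 missed the threshold (limma, adjusted p = 0.106).

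The remaining chromosome 8 calls were bright probes. A_30_P01031572, at chr8:74820025-74833350 (letter F), read 13.81, 13.08, 13.47 and 13.45 on the null-labelled arrays and 12.65, 12.03, 12.34 and 12.18 on the wild-type arrays, a rise of 1.15 ± 0.18 (limma, adjusted p = 0.0305) whose call was lost in 6 of the 8 fits that left out an array. A_30_P01028290, at chr8:19792940-19798868 (letter F), read 14.23, 14.13, 14.31 and 14.43 against 13.51, 13.32, 13.41 and 13.51. Neither had groups that overlapped, and the arrays of a genotype lay closer together for the second probe. The second rose by 0.84 ± 0.09 (limma, adjusted p = 0.00480), whereas the probe of letter R at the much longer locus around it, chr8:19678750-20038750, differed by -0.06 ± 0.10.

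Elsewhere the largest rise was on chromosome 19. A_30_P01028367, at chr19:61190886-61216704 (letter R), read 7.85, 8.67, 8.69 and 7.92 on the null-labelled arrays and 6.36, 6.33, 6.65 and 6.29 on the wild-type arrays. Null-labelled arrays 2 and 3 lay well above 1 and 4, and all were above the wild-type arrays. The rise was 1.87 ± 0.21 (limma, adjusted p = 0.00583). The enclosing locus chr19:61177675-61219875 had a probe of the same letter, A_30_P01032512, that did not overlap in the opposite sense, at -0.31 ± 0.09, and was not called (adjusted p = 0.404).

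On chromosome 4, A_30_P01029462 at chr4:142937279-142937669 (letter R) read 5.95, 5.34, 5.20 and 5.62 on the null-labelled arrays and 3.92, 3.83, 3.48 and 4.10 on the wild-type arrays. It was well above background on all 4 null-labelled arrays but only 2 wild-type arrays, so it was retained through the group in which it is high. The fitted rise was 1.70 ± 0.19 (limma, adjusted p = 0.00502), and with normexp background correction it was 0.45 and not called (adjusted p = 0.0548). Its size therefore rests in part on wild-type values at background. On chromosome 11, A_30_P01018088 at chr11:59189157-59220607 (letter F) read 6.50, 6.34, 6.63 and 6.56 against 5.42, 5.53, 5.23 and 5.54. Its groups were well apart, and it rose by 1.08 ± 0.10 (limma, adjusted p = 0.00209), a difference that normexp background correction reduced to 0.51, under the fold threshold. Inside that locus, 2 retained probes of letter R differed by 0.04 ± 0.11 and 0.03 ± 0.12 (adjusted p = 0.999911 for both).

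A second chromosome 14 call went up. A_30_P01033356, at chr14:33895294-33923644 (letter F), read 9.86, 9.69, 9.51 and 9.62 on the null-labelled arrays and 8.93, 9.01, 8.68 and 8.47 on the wild-type arrays. Groups did not overlap, with wild-type array 4 the lowest of all. The rise was 0.90 ± 0.14 (limma, adjusted p = 0.0269), with the call lost in 7 of the 8 fits that left out an array, and the probe of letter R at the same locus differed by -0.26 ± 0.16 (adjusted p = 0.968).

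Chromosome 17 had falls alone. A_30_P01027003, at chr17:24152225-24169870 (letter R), read 4.88, 4.55, 4.12 and 4.26 on the null-labelled arrays and 5.85, 5.64, 5.80 and 5.52 on the wild-type arrays, a fall of -1.25 ± 0.17 (limma, adjusted p = 0.0137) that was -0.46, under the fold threshold, with normexp background correction, and whose call was lost in 3 of the 8 fits that left out an array. A_30_P01028898, at chr17:29374758-29387733 (letter F), read 3.01, 3.21, 3.34 and 3.14 against 4.10, 4.37, 4.20 and 4.09. On the null-labelled arrays this second probe never rose well above background, so its level there is only a bound, and it was retained through the wild-type arrays, where it is high. The signal was at least 1.65-fold lower (fitted log2 difference -1.01 ± 0.10; limma, adjusted p = 0.00293). With normexp background correction the difference was -0.15 and not called (adjusted p = 0.602). The bound sets the wild-type mean against the lowest signal counted as well above background on each null-labelled array, or the probe's own signal if that was higher. Another 2 retained probes to that same locus and letter, brighter ones, differed by -0.09 ± 0.12 and -0.17 ± 0.14 (adjusted p = 0.999911 for both), so the fall was seen by 1 of 3 retained probes.

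The last call was dim as well. A_30_P01021003, at chr2:118408095-118415745 (letter R), read 4.37, 4.43, 4.13 and 4.47 on the null-labelled arrays and 3.74, 3.80, 3.85 and 3.56 on the wild-type arrays. It was not well above background on any wild-type array, and the signal was at least 1.44-fold higher (fitted log2 difference 0.61 ± 0.10; limma, adjusted p = 0.0480). This bound lies under the fold of 1.5, so the call rests on wild-type values at background, and the probe was retained through the null-labelled arrays alone. With normexp background correction the difference was 0.06 (limma, adjusted p = 0.999896) and was not called, and the call was lost in 7 of the 8 fits that left out an array.

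Outside the threshold the nearest probes were similar in size to those just within it. A_30_P01030208, at chr14:20893694-20903726 (letter F), read 9.63, 9.68, 9.40 and 9.41 on the null-labelled arrays and 8.62, 8.97, 9.04 and 8.84 on the wild-type arrays, a difference of 0.66 ± 0.12 (limma, adjusted p = 0.0581). A_30_P01028665, at chr17:6455677-6476228 (letter F), differed by 0.63 ± 0.12 (limma, adjusted p = 0.0862). Both had genotypes that did not overlap. A_30_P01022821, at chr7:91558475-91733625 (letter F), passed the adjusted p (0.0400, limma) with a log2 difference of -0.53 ± 0.09 but not the fold of 1.5. Its adjusted p (limma) was 0.115 without null-labelled array 1, 0.0876 without array 2 and 0.132 without array 3. With normexp background correction it was 0.119 (limma).

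The calls were spread unevenly over chromosomes. On chromosome 8, 3.87% of retained noncoding probes were called, beside 3.34% (40 of 1197) of retained probes with a RefSeq gene name on that chromosome, and 12.3% (19 probes) had genotypes that did not overlap, beside 4.79% of all retained probes. The 6 noncoding calls there became fewer, down to 2, in 7 of the 8 fits that left out an array. On chromosome 14 the called share was 1.75% (2 of 114) beside 2.92% of gene probes, and on chromosome 4 it was 0.629% (1 of 159) beside 1.8%. These are the 3 chromosomes on which probes of named genes were called most often. Together they held 9 called of 428 retained noncoding probes (2.1%), and 5 of 2061 (0.243%) were called elsewhere; the gene probes had 2.58% and 0.139%. These shares are a description with no test, since the chromosomes were picked from the calls. For the noncoding probes chromosome 8 gave 6 of the 9 calls, and the share on chromosome 4 was close to that over all noncoding probes (0.561%). Chromosomes 4 and 14, with 1 and 2 called probes, rested on as few as chromosomes 11, 17 and 19, where the share was 1.01%, 1.23% and 1.79% from 1, 2 and 1 probes. On the X chromosome 0 of 102 retained noncoding probes were called by limma, 5 (4.9%) had an unadjusted p under 0.05 and the local pooled error test called 1, beside 0.545%, 6.46% and 0.647% of all retained probes.

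**Figure D4:**
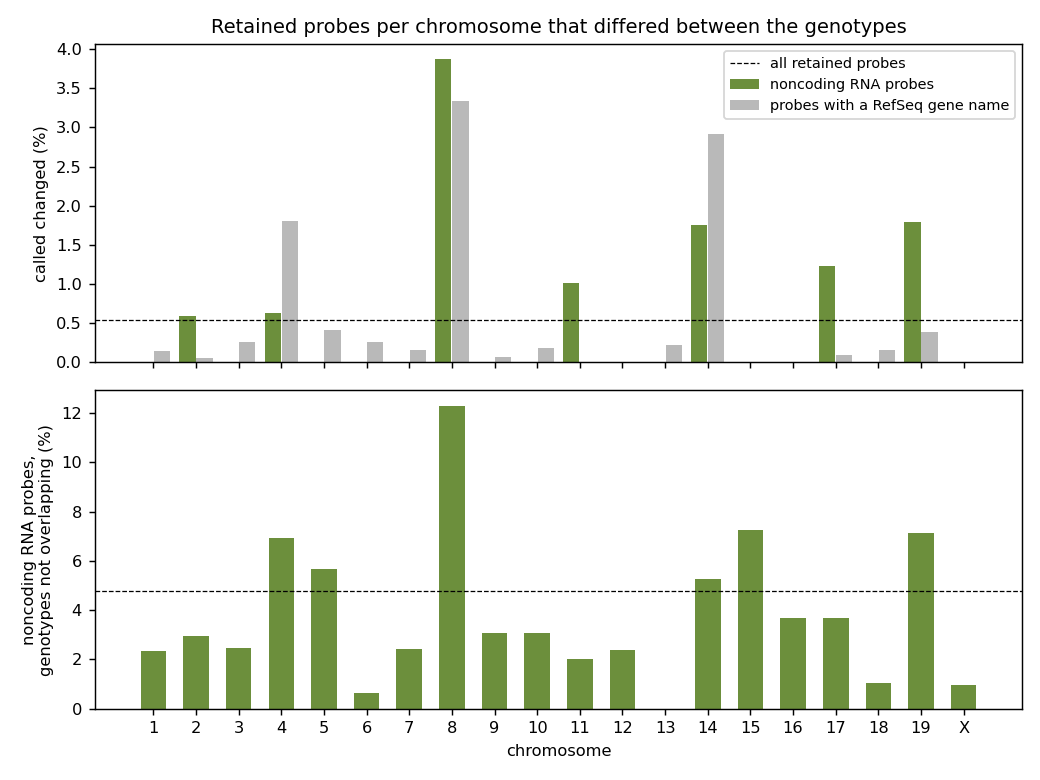
The upper bars give the percentage of retained probes called changed on each chromosome, green for noncoding RNA probes and grey for probes with a RefSeq gene name, and the lower bars the percentage of noncoding probes whose genotypes do not overlap; dashed lines are the shares over all retained probes, 0.545% and 4.79%. Chromosome 8 stands highest in both, at 3.87% and 12.3% of its noncoding probes.

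Detection often differed between the letters of a locus. Of the 832 loci with both letters, 329 had both retained, 355 one and 148 neither. In 288 loci both letters were well above background on all arrays, and in 209 one letter was on all arrays and the other on none. Over the 329 loci the differences of the letters had the same sign in 175 (53.2%), with Pearson's r = 0.08 and Spearman's rho = 0.05, given as a description across loci measured on the same arrays. A call fell in 5 of the 832 loci, but at only 2 of these was the other letter retained and so tested, and there it was not called. Of the retained probes, 0.408% of letter F (5 of 1225) and 0.713% of letter R (9 of 1263) were called. Repeated probes of 1 locus and letter had the same sign about as often. Of 135 combinations of locus and letter with at least 2 retained probes, 74 (54.8%) had all probes on the same side of 0, the median range of their log2 differences was 0.10, and the chr8:72105642-72105922 pair was the only one in which 2 probes were called. Most of these differences were small, so the share of equal signs cannot show whether the letters of a locus change together or apart.

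**Figure D5:**
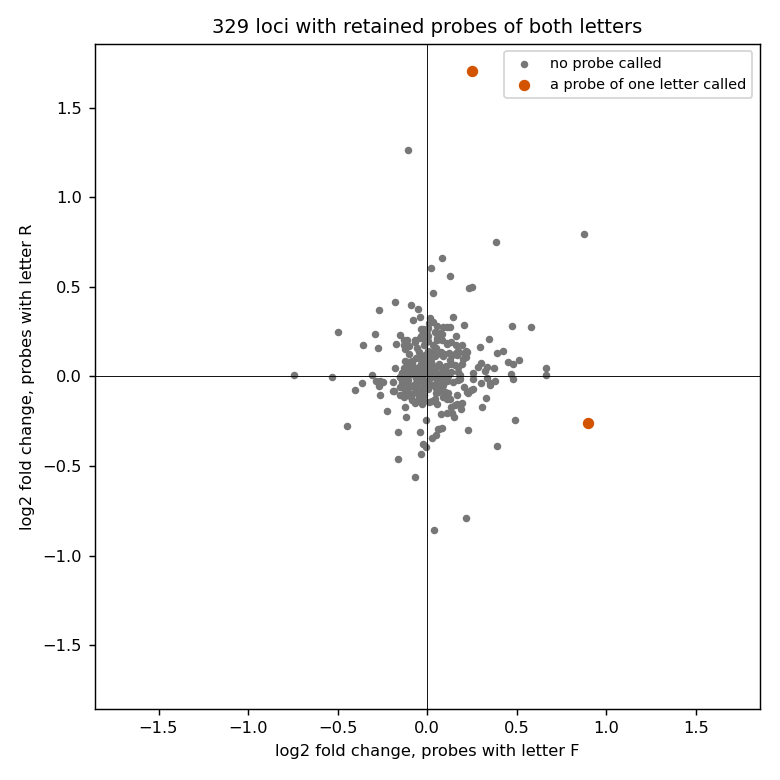
Each point is 1 of 329 loci with retained probes of both letters, with the mean log2 fold change (null-labelled minus wild-type) of its F probes on the x axis and of its R probes on the y axis. The cloud has no slope to speak of (r = 0.08), and the 2 orange loci with a called probe sit at 0.25 and -0.26 for the other letter.

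The 10 named transcripts gave 6 retained probes and 0 calls by limma, with 1 of them at an unadjusted p under 0.05 and 1 called by the local pooled error test, beside 0.545%, 6.46% and 0.647% of all retained probes; so few probes carry no result about the group. XIST, the RNA that coats the inactive X chromosome, read 13.95, 14.74, 14.49 and 14.04 on the null-labelled arrays and 14.47, 13.20, 2.71 and 3.32 on the wild-type arrays. Wild-type array 1 lay among the null-labelled arrays, wild-type array 2 a little below all of them, and wild-type arrays 3 and 4 were not well above background. Wild-type array 2 thus had both XIST and Y-linked signal, and the labels used here give no sex. The probe was retained through the null-labelled arrays, and the fitted difference, which rests on those background values, was 4.00 without wild-type array 3 and 8.09 without wild-type array 1. With all arrays, the 5.88 ± 2.62 was not called by limma (adjusted p = 0.785), which weighs it against the spread of the wild-type arrays, and was called by the local pooled error test, which borrows its error from probes of like brightness. A separate Xist probe outside the noncoding set followed the same arrays (r = 0.997 over 8 arrays). Among the noncoding loci, those most like it were chr2:168136389-168136560 (letter R), at r = 0.929, and chrX:12811766-12813409 (letter R), at r = 0.928, over the same 8 arrays and with no p. With XIST included, 5 retained noncoding probes had r over 0.9, and 3 had r under -0.9. Such values lean on wild-type arrays 3 and 4, where the separate Xist probe read 1.88. The chr2 probe was dim there, at 3.91 and 4.19, and was well above background on 3 wild-type arrays.

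NEAT1, the scaffold of paraspeckles, read 9.81, 9.60, 10.40 and 9.64 on the null-labelled arrays and 9.53, 9.43, 9.10 and 9.39 on the wild-type arrays. Both groups came close to each other without overlapping, beside 4.79% of all retained probes that did not overlap. The difference of 0.50 ± 0.19 was not called (limma, adjusted p = 0.616), and it was 0.32 without null-labelled array 3. A second Neat1 probe, outside the noncoding set, differed by -0.02 ± 0.22. TUG1, the RNA needed for photoreceptors to form, read 11.07, 9.95, 10.50 and 10.99 against 10.46, 10.94, 10.27 and 10.76, with the groups interleaved (0.02 ± 0.26), and a separate Tug1 probe, A_52_P62428, differed by -0.15 ± 0.08 (limma, adjusted p = 0.929). KCNQ1ot1, which silences an imprinted cluster, NRON, a repressor of NFAT import into the nucleus, and PINC, found in mammary gland, differed by 0.03 ± 0.13, 0.07 ± 0.15 and 0.08 ± 0.14 (limma, adjusted p = 0.999911 for each). The probes to H19, HOTAIR, TSIX and lincP21 were well above background on 0 arrays. Another H19 probe, A_55_P2903297, outside the noncoding set, was well above background on 4 null-labelled and 3 wild-type arrays and differed by -0.32 ± 0.19 (limma, adjusted p = 0.952).

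Known long noncoding RNA genes that are represented by other probes of the array were compared as a separate list of 55 genes, of which 36 were retained. None was called higher and 2 of the 36 were called lower, Crnde and Snhg3, beside 0.545% of all retained probes called in either direction and 0.289% called lower. Where these 2 genes lie was not set beside the uneven spread of calls over chromosomes, so 2 calls carry no result about the list. The list's median log2 difference was -0.01, the same as over all retained probes. Crnde, a noncoding gene next to Irx5, had 2 probes. A_55_P2723781 read 6.64, 6.10, 6.64 and 6.37 on the null-labelled arrays and 7.92, 7.99, 7.86 and 7.96 on the wild-type arrays, a fall of -1.50 ± 0.13 (limma, adjusted p = 0.00110). A_66_P105391 read 6.80, 6.86, 6.78 and 6.73 against 7.29, 7.28, 7.41 and 7.53, a fall of -0.59 ± 0.08 (limma, adjusted p = 0.0204). Both probes separated the genotypes in the same direction, by different amounts, and the second, just past the fold of 1.5, lost its call in 6 of the 8 fits that left out an array and under the local pooled error test. Snhg3, host gene of a small nucleolar RNA, read 10.36, 11.05, 10.95 and 10.81 against 11.64, 11.72, 11.93 and 11.88, and fell by 1.00 ± 0.15 on the log2 scale (limma, adjusted p = 0.0294), a call that was lost in 6 of the 8 fits that left out an array.

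The local pooled error test, which the study's methods name, called 18 noncoding probes (beside 0.647% of all retained probes), 12 of them shared with limma. That count comes from a rewritten test, an adjusted p and another filter, so it is not on the footing of the study's own list. The study's top probes already include A_30_P01028367 and A_30_P01033318 as higher and A_30_P01031079 as lower. The probes that the local pooled error test alone called were mostly ones whose arrays scattered within a genotype. A_30_P01025874, at chr5:74487385-74497428 (letter R), read 8.13, 11.22, 7.31 and 7.04 on the null-labelled arrays and 8.02, 7.92, 11.76 and 9.42 on the wild-type arrays. Null-labelled array 2 and wild-type array 3, which had the lowest 75th percentile of signal in their genotypes, were also the highest here, and the groups overlapped in part, with null-labelled arrays 3 and 4 below all wild-type arrays (-0.86 ± 1.097; limma, adjusted p = 0.999911). A_30_P01030915, at chrX:47890565-47915775 (letter F), read 8.50, 8.94, 8.50 and 8.44 against 7.90, 9.01, 9.85 and 9.83. Its wild-type arrays 3 and 4, those without XIST signal, were the highest and array 1 the lowest, and limma did not call it (-0.55 ± 0.40; adjusted p = 0.999911). A_30_P01018399, at chr4:146890596-146891297 (letter F), read 2.04, 3.15, 4.53 and 4.71 against 5.62, 5.90, 5.33 and 5.60, with every null-labelled array below every wild-type array but widely spread (-2.004 ± 0.54; limma, adjusted p = 0.292). It was well above background on 2 of the 4 null-labelled arrays and was retained through the wild-type arrays, so the difference rests in part on values at background. The probes that limma alone called were A_30_P01021003 and A_30_P01028898.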

How the data were processed

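RNA of 8 mouse retina samples, 4 per genotype, was hybridised by the authors to 1-color Agilent SurePrint G3 arrays, and the deposited intensities are the processed signals of Feature Extraction 11.0.1.1 (version from the submitters' processing notes), already background-corrected; the array's design build, per the file headers, is mm9. The authors' deposited table of processed signal intensities was used, after taking log2, as an alternative only. Control and outlier spots were left out, spots of a probe averaged, log2 signals quantile normalized over the 37085 retained probes (at least 3 measured arrays in the genotype above background, 2 in the other), and the genotypes compared with limma 3.58.1 in R 4.3.3 (Benjamini-Hochberg over all retained probes). The local pooled error test was rewritten for this work. Feature Extraction flags gave detection. Array number limits the precision. Probes were described if called, near the threshold, or named. The members were taken by identifier; that this class of probes was described, and which gene lists were used, was decided with earlier results of these data known. In data simulated on 37075 retained probes for this comparison, limma recovered 54% of 100 probes changed 2-fold and 97% of 100 changed 4-fold, and made 7 false calls; for the local pooled error test these values were 60%, 99% and 181. Alternatives covered normalization, background correction, filter, test, thresholds, probe choice, a replicate block and each array left out. Same-numbered samples deviated together with correlations of -0.29, -0.69, 0.03 and 0.41, so the numbers were not treated as pairs. RefSeq (GRCm38.p6) gave names and chromosomes of gene probes only; it named 0 of the noncoding probes, and mm9 sequence was not used here.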

Additional observations from a re-analysis of the deposited data

Results flagged for a closer look

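The 75th percentile of processed signal of null-labelled array 2 was 678, against 1000 to 1058 on the other null-labelled arrays, and its gap to the nearest of them was 0.846 of the group's range (4 arrays), above Dixon's critical value for a group of that size. Of 62 groups screened in this way 1 lay above that value, and chance alone puts about 1 group in 20 there. Without that array, 17 noncoding probes were called in place of 14.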

How the results depend on the processing

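No noncoding probe that was called changed direction under any alternative run. A_30_P01031079 and A_30_P01033318 were called in all 24 alternatives, each array left out included; the other 12 called probes lost the call in 1 to 16 of those in which they were retained. The count of 14 called probes was 9 with normexp background correction (8 higher and 1 lower, 88.9% higher in place of 71.4%), 8 without the arrays of lowest signal in each genotype, 9 at a fold of at least 2, and 7 to 17 with 1 array left out, lowest without wild-type array 3. Without wild-type arrays 3 and 4, those that lacked Xist signal, 3 were called, 2 of them among the 14, an alternative chosen after seeing the data. The 6 calls on chromosome 8 became 2 without the arrays of lowest signal, 3 at a fold of at least 2, 2 without wild-type arrays 3 and 4, and 2 to 6 with 1 array left out. In 7 of those 8 fits the chromosome 8 count was lower, and it stayed at 6 only without null-labelled array 2. With the replicate number as a block, 6 noncoding probes were called, 2 of them on chromosome 8; correlations of same-numbered samples did not pair them. Fewer arrays also mean fewer degrees of freedom; beyond that the cause was not tested. With no filter on dim probes the letters had the same sign in 441 of 832 loci. The count kept within 1.5 times of 14 under the other alternatives, 10 to 18. The median log2 difference ran from -0.00 to 0.05 with 1 array left out, the same-sign loci from 159 to 193, the Abcc4 difference from 3.83 to 4.00, the genotype difference in detection from 1.42 to 3.17 percentage points, and the gap to other probes from -9.19 to -8.82. With 1 array left out, A_30_P01021003, A_30_P01023337 and A_30_P01033356 lost the call in 7 of 8 fits, A_30_P01031572 and A_30_P01032801 in 6, A_30_P01032449 in 5 and A_30_P01027003 in 3. Under normexp the differences of the 6 called probes that lost the call were 0.06 (A_30_P01021003), -0.15 (A_30_P01028898), -0.41 (A_30_P01032801), 0.45 (A_30_P01029462), -0.46 (A_30_P01027003) and 0.51 (A_30_P01018088), and A_30_P01030208 gained a call.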
